A study of Penicillium oxalicum with 9 samples.

Results

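The genes described here encode the core enzymes with which Penicillium oxalicum degrades cellulose, namely a pair of cellobiohydrolases, a pair of endoglucanases and the extracellular beta-glucosidase. They were taken by locus number, 5 of the 9860 genes in the table: PDE_07945 (cbh1, cellobiohydrolase Cel7A-2), PDE_07124 (cel6A, cellobiohydrolase Cel6A), PDE_07929 (eg1, endoglucanase Cel7B), PDE_09226 (eg2, endoglucanase Cel5B) and PDE_02736 (bgl1, extracellular beta-glucosidase). The deposited table lists locus numbers without names, so these names are the ones in use for strain 114-2 and no file checked them. All 5 were among the 9099 genes tested.

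Endoglucanases cut within cellulose chains, cellobiohydrolases release the disaccharide cellobiose from the chain ends, and beta-glucosidase splits cellobiose into glucose. In filamentous fungi these genes are usually induced together on cellulose and repressed by glucose. CrzA, a fungal transcription factor with zinc fingers, enters the nucleus when the phosphatase calcineurin, activated by calcium, removes its phosphate groups. The series title asks how CrzA affects development and cellulose-degrading genes.

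The strains were the wild type 114-2, a crzA deletion strain and one labelled the CrzA recover strain, here the recovery strain, with 3 libraries each. The labels do not say how crzA was removed or put back, how many clones each strain stands for, or whether a replicate is a culture of its own, so the p-values rest on a spread between libraries that may be technical. Mycelium of all strains came from 24 h of pre-culture at 30 °C and was kept for 18 h after transfer to fresh medium with 2% starch. The source names of all 9 samples give glucose instead, and the conflict was not settled, so the samples are called by strain only. No culture on cellulose is among the samples analysed here. The row of crzA could not be named, and its level, which would check the strain labels, was not analysed here; the same holds for marker genes of mycelium.

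Levels are in FPKM (fragments mapped, per kilobase of gene and library size), with sums of 973798 to 1063502 per library. The number of reads is unknown. On the largest principal component, with 68.0% of the variance, the deletion libraries had scores of 64.1 to 71.9. The score of wild-type replicate 2 was -17.4, apart from the other wild-type and recovery libraries at -39.5 to -36.2, so results are given with and without it below. The labels name no batch or sequencing run.

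The 5 genes fell into 2 classes of abundance. The 4 cellulase transcripts were scarce in all 9 libraries, at 0.59 to 8.17 FPKM, and between 7.65% and 25.1% of the genes in a library had lower FPKM than they did. In contrast, bgl1 stood at 71.5 to 443 FPKM, above 77.2% to 96.4% of genes. Within the wild type the mean levels in FPKM were 4.97 ± 3.38 for cbh1, 6.34 ± 2.80 for cel6A, 6.34 ± 2.46 for eg1, 6.47 ± 2.56 for eg2 and 357 ± 145 for bgl1 (SD, n = 3 each), so the order among the 4 cellulases lay within the spread of the replicates and only bgl1 was set apart. In the recovery strain the order from highest was cel6A at 6.22 ± 0.171, eg2 at 5.45 ± 0.403, eg1 at 4.88 ± 0.244 and cbh1 at 2.28 ± 0.587 FPKM. Unlike in the wild type, neighbours in this order did not overlap, though eg1 at 4.60 to 5.06 FPKM nearly met eg2 at 5.08 to 5.88. In the deletion strain cel6A led at 6.14 ± 1.27, followed by eg2 at 3.36 ± 0.473, eg1 at 2.35 ± 0.557 and cbh1 at 0.840 ± 0.245 FPKM, and the ranges of neighbours in that order did not overlap. If the values come from short tags, as the extraction protocol describes, division by gene length makes such comparisons between genes uncertain, whereas a comparison of 1 gene between strains is less affected.

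**Figure D1:**
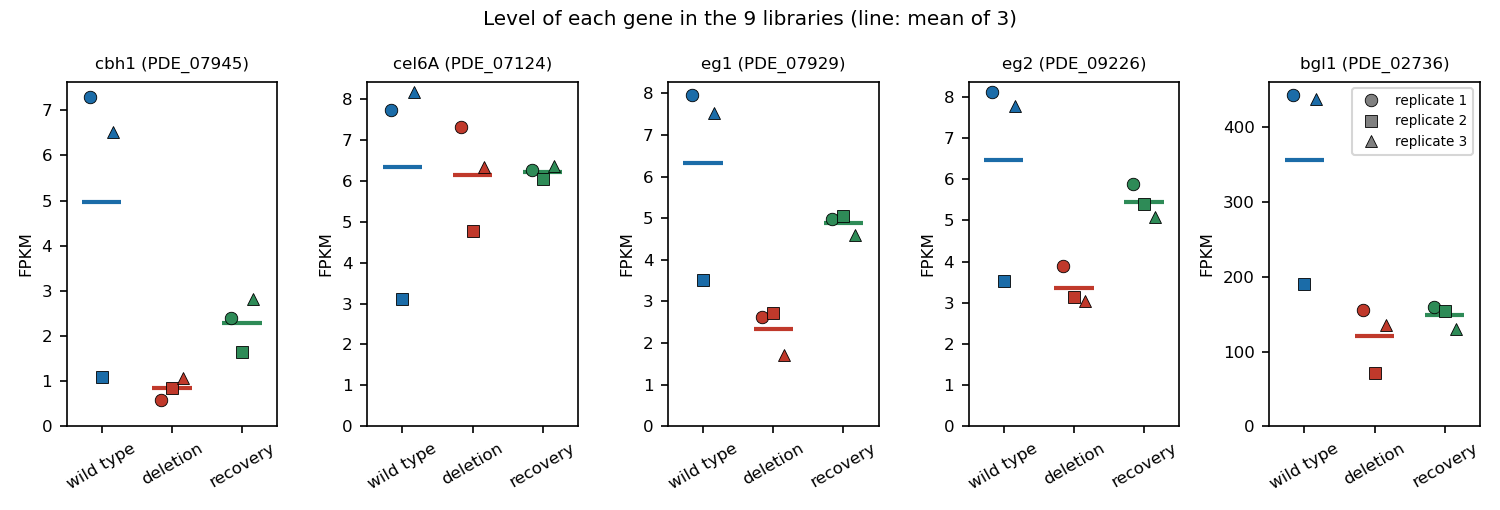
FPKM of the 5 genes in each library on linear axes that start at 0, with circles, squares and triangles for replicates 1, 2 and 3 and a line at the mean of each strain. The square of the wild type lies under its circle and triangle in all 5 panels, and cel6A has similar means in the 3 strains.

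Deletion of crzA was set against the wild type to ask which of these transcripts differ in its absence. The transcripts of cbh1, eg1 and bgl1 fell in the deletion strain, eg2 was lower without passing the test, and cel6A was at about the same mean level in both strains. Since whole mycelium was measured, fewer cells with a transcript and less of it per cell cannot be told apart. Thus 3 of 5 genes were called lower and 0 higher (limma, Benjamini-Hochberg adjusted p under 0.05 over all 9099 genes), where 11.1% of all tested genes were called lower and 15.0% higher. The median log2 change of the 5 genes was -1.08, against 0.06 over all tested genes.

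Among the cellobiohydrolases, which attack chain ends, cbh1 stood at 7.30, 1.10 and 6.52 FPKM in wild-type replicates 1, 2 and 3 and at 0.59, 0.85 and 1.08 in deletion replicates 1, 2 and 3. Replicates 1 and 3 of the wild type were high, and replicate 2 exceeded the highest deletion library only narrowly, so the groups were apart by a thin margin. The ratio of means was 5.92-fold, and the log2 change of FPKM + 1 was -1.47 ± 0.47 (SE, limma adjusted p = 0.0467). At such low FPKM the pseudocount of 1 shrinks the change, which was -2.08 with a pseudocount of 0.1 and -0.71 with 5, the latter at a limma adjusted p of 0.0519. The other cellobiohydrolase, cel6A, had wild-type values of 7.73, 3.12 and 8.17 FPKM and deletion values of 7.30, 4.78 and 6.34. Its ranges overlapped, and replicate 2 was the lowest library of each strain. The log2 change was 0.03 with a 95% interval from -0.65 to 0.71 (limma adjusted p = 0.951), an interval too wide to show that the level was unaffected.

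Among the endoglucanases, which cut inside the chain, eg1 had wild-type values of 7.97, 3.51 and 7.53 FPKM and deletion values of 2.62, 2.72 and 1.71. All deletion libraries lay below all wild-type libraries. The log2 change was -1.08 ± 0.27 (SE, limma adjusted p = 0.0186), with a ratio of means of 2.70-fold. For eg2 the wild-type values were 8.12, 3.52 and 7.77 FPKM and the deletion values 3.90, 3.13 and 3.04. Here wild-type replicate 2 lay inside the deletion range. The log2 change of -0.71 ± 0.27 did not pass the threshold (SE, limma adjusted p = 0.0797).

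The beta-glucosidase transcript bgl1 reached 443, 190 and 438 FPKM in wild-type libraries and 156, 71.5 and 135 in deletion libraries. The groups did not overlap, and replicate 2 was the lowest library in both. The log2 change was -1.53 ± 0.37 (SE, limma adjusted p = 0.0166), with a ratio of means of 2.95-fold, and the pseudocount scarcely touched it at this abundance. By range alone, cbh1, eg1 and bgl1 were apart between these strains, 3 of 5 genes where 14.5% of all tested genes lay wholly lower in the deletion strain.

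These calls depended on which libraries entered the fit. Those of eg1 and bgl1 stayed when any 1 recovery library, deletion replicate 1 or 2, or wild-type replicate 2 was left out. With wild-type replicate 1 or wild-type replicate 3 left out, 0 of the 5 genes passed the threshold, and without deletion replicate 3 only bgl1 did. The share of all tested genes called lower also fell, to 7.62%, 7.15% and 8.32% in these fits. The call of cbh1 was lost without any 1 library except wild-type replicate 2, at limma adjusted p from 0.0625 to 0.161. Without wild-type replicate 2, cbh1, eg1, eg2 and bgl1 passed, with log2 changes of -2.11, -1.40, -1.04 and -1.93 (limma adjusted p = 0.000140, 0.000673, 0.00158 and 0.00171), and 16.2% of all genes tested in that fit were called lower. That library was low for all 5 genes, so larger changes without it follow from its removal. A fit to the libraries of these strains alone also left 0 of 5 past the threshold, with unchanged log2 values. In it 7.47% of all genes tested were called lower.

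**Figure D2:**
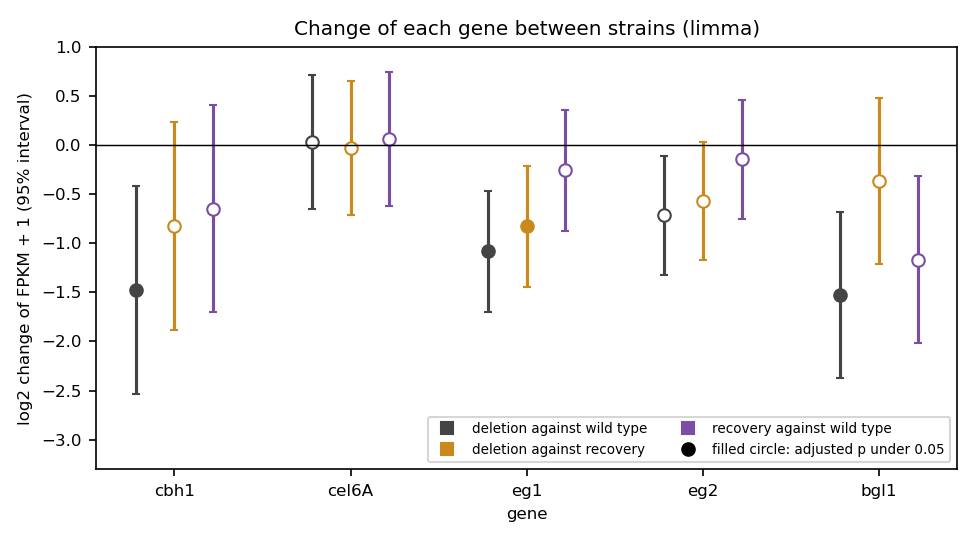
Log2 change of FPKM + 1 for each gene in the 3 comparisons between strains, with 95% intervals from limma and filled circles where the adjusted p was under 0.05. Filled circles appear for cbh1, eg1 and bgl1 in deletion against wild type and for eg1 in deletion against recovery, and the intervals of cel6A are centred near 0 in all 3 comparisons.

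The deletion strain was next compared with the recovery strain, in which crzA was put back. The endoglucanase transcript eg1 was lower in the deletion strain, and the remaining 4 genes did not pass the threshold. This made 1 of 5 genes called lower and 0 higher, against 16.1% of all tested genes called lower and 15.4% higher. The median log2 change of the 5 genes was -0.57, against -0.02 over all tested genes. The deletion libraries are the same as in the comparison with the wild type, so the comparisons are not independent.

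Recovery replicates 1, 2 and 3 had eg1 at 4.97, 5.06 and 4.60 FPKM, all above the highest deletion value of 2.72. The log2 change in the deletion strain was -0.82 ± 0.27 (SE, limma adjusted p = 0.0469), near the threshold. For cbh1 the recovery values were 2.39, 1.65 and 2.81 FPKM and again all lay above the deletion values, and the log2 change was -0.83 ± 0.47 (limma adjusted p = 0.208). For eg2 they were 5.88, 5.40 and 5.08 FPKM, above the deletion range of 3.04 to 3.90, and the log2 change was -0.57 ± 0.27 (limma adjusted p = 0.134). Thus cbh1, eg1 and eg2 were each separate between deletion and recovery by range, 3 of 5 genes where 25.0% of all tested genes lay wholly lower in the deletion strain. The recovery values of bgl1 were 160, 155 and 130 FPKM, and those of cel6A were 6.27, 6.03 and 6.36. Both overlapped the deletion range. Their log2 changes in the deletion strain were -0.36 with a 95% interval from -1.21 to 0.49 for bgl1 (limma adjusted p = 0.487), and -0.03 with one from -0.71 to 0.65 for cel6A (limma adjusted p = 0.948). The value of bgl1 moved to -0.026 without deletion replicate 2 and to -0.58 without deletion replicate 1.

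All 3 strains share 1 estimate of spread in this fit, so the uneven wild type also entered this comparison. Without wild-type replicate 2, the log2 changes stayed as they were and cbh1, eg1 and eg2 were called (limma adjusted p = 0.0102, 0.00552 and 0.0159), and the fit to the 2 strains alone called the same 3 genes (limma adjusted p = 0.0217, 0.0138 and 0.0338). Of all genes tested, 18.8% and 16.1% were called lower in these fits. The call of eg1 was lost without any 1 recovery library, without deletion replicate 1 or 3, and without wild-type replicate 3, with limma adjusted p from 0.0577 to 0.147. Between 10.1% and 14.1% of all genes tested were called lower in those fits.

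The recovery strain was compared with the wild type to ask how near to the wild type it lay. None of the 5 genes passed the threshold, where 0.725% of all tested genes were called lower and 0.846% higher. At an unadjusted limma p under 0.05, 1 of the 5 genes, bgl1, was lower, where 4.68% of all tested genes were. Its recovery libraries at 130 to 160 FPKM all lay below the wild-type libraries at 190 to 443, the only one of the 5 genes whose groups did not overlap here, where 8.17% of all tested genes lay wholly lower in the recovery strain. The ratio of means was 2.40-fold and the log2 change -1.17 ± 0.37 (SE, limma adjusted p = 0.191). For cbh1 the log2 change was -0.65 ± 0.47 (limma adjusted p = 0.584), for eg1 -0.26 ± 0.27 (limma adjusted p = 0.717), for eg2 -0.14 ± 0.27 (limma adjusted p = 0.847) and for cel6A 0.06 ± 0.30 (limma adjusted p = 0.948). Without wild-type replicate 2, cbh1 and bgl1 were called lower in the recovery strain, with log2 changes of -1.28 and -1.57 (limma adjusted p = 0.00949 and 0.0191), and 4.79% of all genes tested in that fit were called lower.

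Set against the mean of both crzA-carrying strains, the deletion strain had 1 of 5 genes lower, eg1, whose log2 change was -0.95 ± 0.24 (SE, limma adjusted p = 0.0134), where 16.2% of all tested genes were called lower and 18.3% higher. By range, cbh1 and eg1 lay wholly below the other 6 libraries, 2 of 5 genes where 13.2% of all tested genes did. For bgl1 this contrast averages unlike values, a log2 change of -1.53 against the wild type and -0.36 against the recovery strain. Against the recovery strain bgl1 did not pass without wild-type replicate 2 either (limma adjusted p = 0.321). Just short of the threshold were bgl1 at -0.95 (limma adjusted p = 0.0501), cbh1 at -1.15 (limma adjusted p = 0.0549) and eg2 at -0.64 (limma adjusted p = 0.0587). Without wild-type replicate 2, a library low for all 5 genes, all of these passed, at limma adjusted p from 0.000246 for cbh1 to 0.00650 for bgl1. In that fit 19.6% of all genes tested were called lower. Without deletion replicate 3 none of the 5 genes passed, where 11.3% of all genes tested were called lower.

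**Figure D3:**
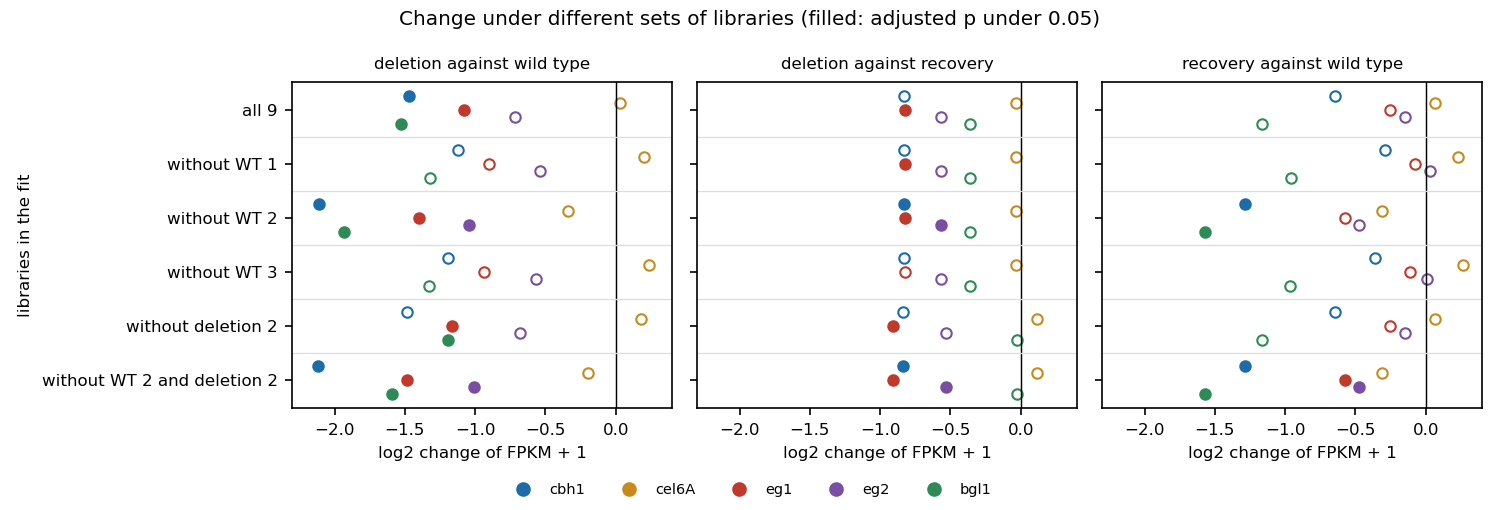
Log2 change of FPKM + 1 for each gene, by colour, in 3 comparisons between strains, when all 9 libraries or fewer enter the fit (WT is the wild type); filled circles have an adjusted p under 0.05. In deletion against wild type no circle is filled without wild-type replicate 1 or 3, and 4 are filled without wild-type replicate 2.

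The spread within the wild type was shared by the 5 genes. Replicate 2 lay at least 2-fold below both other replicates for 5 of 5 genes, whereas 8.68% of all tested genes did so. The mean of wild-type replicates 1 and 3 exceeded replicate 2 by 6.28-fold for cbh1, 2.55-fold for cel6A, 2.21-fold for eg1, 2.26-fold for eg2 and 2.32-fold for bgl1. In terms of log2(FPKM + 1), 1.57% of tested genes lay lower in replicate 2 than cbh1 did, relative to replicates 1 and 3, and 8.15% lay lower than eg1, the least affected of the 5. No other library lay 2-fold below both others of its strain for any of the 5 genes. In wild-type replicate 2, cel6A was below all other libraries of the series, eg2 was inside the deletion range, cbh1 and eg1 lay between the deletion and recovery ranges, and bgl1 lay above both. This library was singled out with its values known, and what sets it apart was not tested. Since it was low for all 5 genes, leaving it out raises their wild-type means and narrows their wild-type spread. The smaller p-values in fits without it follow at least in part from that choice and add no support.

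**Figure D4:**
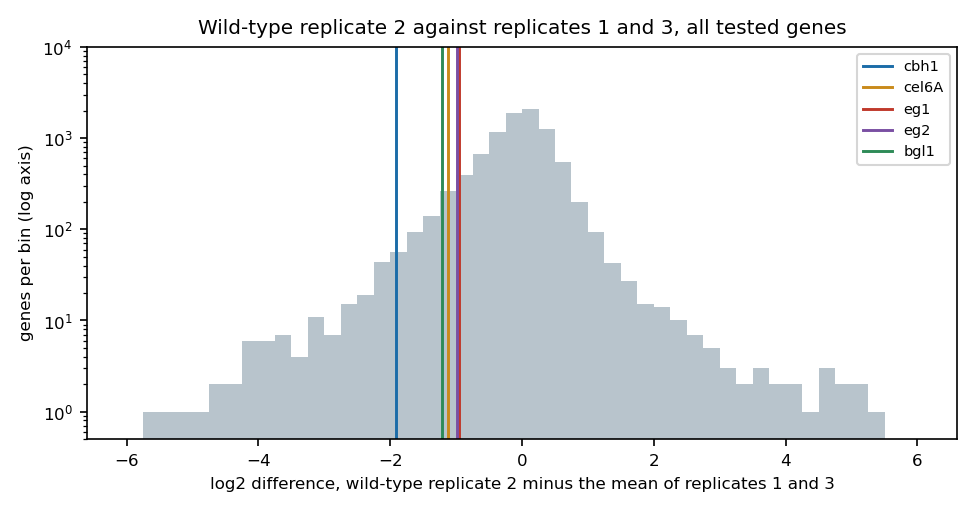
Number of tested genes, on a log axis, by the log2 difference in FPKM + 1 between wild-type replicate 2 and the mean of wild-type replicates 1 and 3, with a vertical line for each of the 5 genes. All 5 lines lie in the lower tail, from -1.91 for cbh1 to -0.96 for eg1, against a median of -0.03 over all tested genes.

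The make-up of the cellulase transcripts was first described by shares of FPKM within a library, which do not depend on its scaling. Of the summed FPKM of the 4 cellulases, cel6A took 26.6% ± 1.55 in the wild type, 33.0% ± 0.819 in the recovery strain and 48.1% ± 5.67 in the deletion strain (SD, n = 3 each). Its share was 41.6% to 52.1% in the deletion libraries and 24.8% to 33.7% in the other 6, so the groups did not overlap. The mean level of cel6A itself was close in the 3 strains, at 6.34, 6.22 and 6.14 FPKM in the same order. Its larger mean share in the deletion strain thus reflects lower values of the other cellulases. No background over all genes was worked out for such shares. The share of cbh1 was 4.09% to 8.87% in the deletion libraries and 9.10% to 23.5% elsewhere. The share of eg2 varied least between strains, at 27.8% ± 3.06 in the wild type, 26.4% ± 1.26 in the deletion strain and 29.0% ± 1.74 in the recovery strain.

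Each of the 10 pairs of genes was tested for a difference in the log2 ratio of FPKM + 1 between the 3 deletion libraries and the other 6, by an exact two-sided permutation test over libraries whose smallest possible p is 0.0238. Relative to eg1, cel6A was 0.95 higher on the log2 scale in the deletion libraries (exact p = 0.0238, adjusted over 10 pairs 0.0794). Relative to eg2 it was 0.64 higher, and relative to cbh1 it was higher by the same test, the mean log2 ratio of cbh1 to cel6A on that scale being -1.95 in the deletion libraries and -0.80 in the others (exact p = 0.0238 and adjusted p = 0.0794 for each). All 3 pairs share cel6A, whose log2 change against the mean of both other strains was -0.00014. Their differences therefore nearly repeat the changes of eg1, eg2 and cbh1 in that contrast and are not independent. In these 3 pairs all deletion libraries lay to the same side of all 6 others, but no pair passed the threshold of 0.05 after adjustment. Their p was already the smallest possible, and after adjustment they could pass only if more pairs had a low p as well. The lack of a call therefore does not show that the proportions were kept. The sizes depended on the pseudocount at these low levels: with 0.1 and 5 in its place, the difference was 1.20 and 0.51 for cel6A over eg1, 0.77 and 0.37 for cel6A over eg2, and -1.72 and -0.50 for cbh1 over cel6A, with adjusted p of 0.0794 in these exact permutation tests. The ratios of cbh1 to eg1 and of eg1 to bgl1 differed by -0.20 and -0.01 (exact permutation p = 0.500 and 0.929), both within the spread of the libraries. However, the other 6 libraries pool the wild type and the recovery strain. The mean log2 ratio of eg1 to bgl1 was -5.57 in the wild type, -4.66 in the recovery strain and -5.13 in the deletion strain. The small difference of -0.01 thus does not show a kept proportion against either strain. For cbh1 to cel6A the mean was -0.44 in the wild type and -1.15 in the recovery strain.

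The level of bgl1 relative to the cellulases was highest in the wild type. The ratio of bgl1 to the summed FPKM of the 4 cellulases was 14.2, 16.9 and 14.6 in wild-type replicates 1, 2 and 3, then 10.8, 6.23 and 11.1 in the deletion strain and 8.22, 8.54 and 6.91 in the recovery strain. All wild-type libraries, replicate 2 included, were above all others, and the deletion and recovery ranges overlapped. This ratio was chosen after its values were seen and is given without a test. Together the 5 transcripts made up 0.0366% ± 0.0152 of summed FPKM in the wild type, 0.0134% ± 0.00451 in the deletion strain and 0.0159% ± 0.00138 in the recovery strain (SD, n = 3 each), most of it bgl1.

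**Figure D5:**
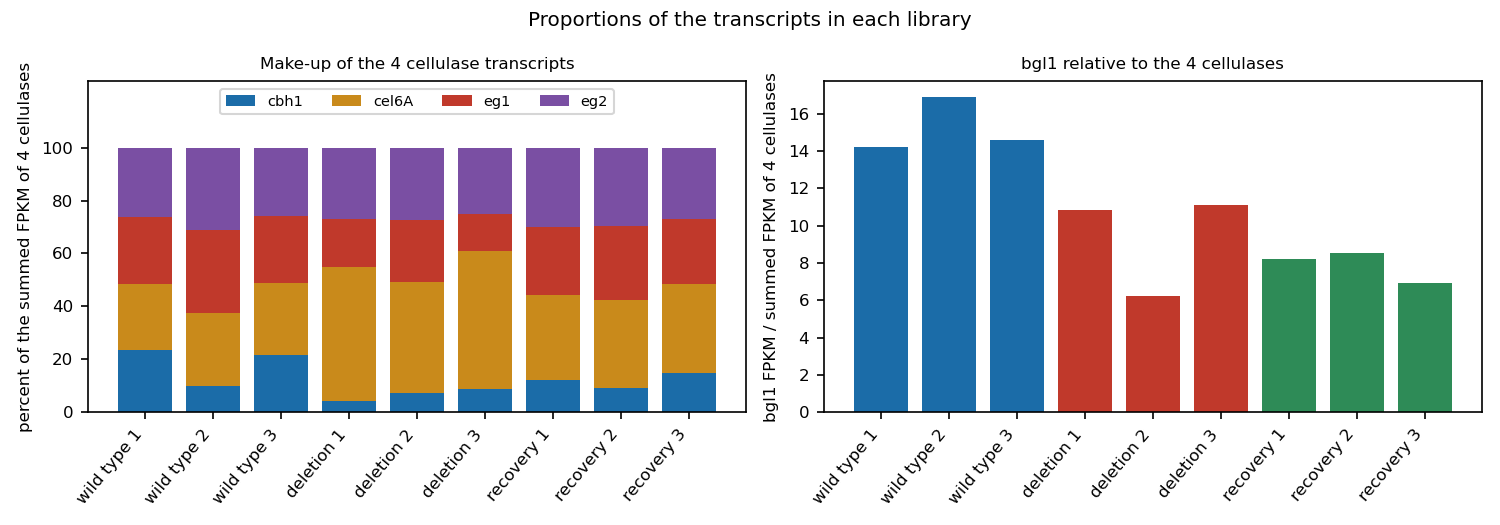
Left, the percentage of the summed FPKM of the 4 cellulases held by each of them in every library; right, the FPKM of bgl1 divided by that sum. The cel6A segment takes 41.6% to 52.1% in the deletion libraries against 24.8% to 33.7% in the others, and the bars of bgl1 are highest in the 3 wild-type libraries.

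Over the 9 libraries, which share their strains and their place on the largest component, the log2 values of eg1 and eg2 correlated at r = 0.958, of cbh1 and eg2 at 0.921 and of cbh1 and eg1 at 0.895. Those of bgl1 with these 3 genes lay between 0.758 and 0.825. The lowest were those of cel6A, from 0.400 with eg1 to 0.622 with eg2. As a description with no test, the gene most like each was sought among 8002 other genes with a mean of at least 5 FPKM. These were PDE_09264 for cbh1 (r = 0.982), PDE_09458 for cel6A (r = 0.977), PDE_06107 for eg1 (r = 0.987), PDE_09523 for eg2 (r = 0.994) and PDE_00690 for bgl1 (r = 0.982). The table gives them no name. An r of at least 0.9 was reached with 206 genes by eg1, 190 by eg2, 119 by cbh1, 65 by bgl1 and 28 by cel6A. Each match was chosen for its likeness over these same libraries, so a similar pattern between strains follows from the choice. The match of cel6A, PDE_09458, had close means in the 3 strains, at 6.37 ± 1.68, 6.24 ± 0.590 and 6.39 ± 0.0656 FPKM in the wild type, deletion and recovery (SD, n = 3 each). The match of bgl1, PDE_00690, stood at 44.7 ± 10.3 FPKM in the wild type, 25.2 ± 4.86 in the deletion strain and 25.4 ± 1.73 in the recovery strain.

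Locus numbers were used as a guide to position, without an annotation of this strain to check their order. The genes within 5 numbers of eg2 included 5 of 10 tested genes called lower in the deletion strain than in the wild type, against 11.1% of all tested genes, and 6 lower than in the recovery strain, against 16.1%. On one side of eg2, PDE_09225 was higher in the deletion strain than in the recovery strain by 2.16 on the log2 scale (limma adjusted p = 0.0296), with uneven deletion libraries at 10.9 ± 12.8 FPKM (SD, n = 3). It stood at 3.65 ± 1.43 FPKM in the wild type and at a low 0.877 ± 0.500 in the recovery strain (SD, n = 3 each). Against the wild type its change in the deletion strain did not pass (log2 change 0.86, limma adjusted p = 0.348). On the other side, PDE_09227 stood at 216 ± 50.9 FPKM in the wild type, 35.1 ± 13.7 in the deletion strain and 159 ± 16.7 in the recovery strain (SD, n = 3 each), with log2 changes in the deletion strain of -2.62 and -2.21 (limma adjusted p = 0.000155 and 0.000384), steeper than those of eg2. Around cel6A, 3 of 8 tested neighbours were lower in the deletion strain than in the wild type. They included PDE_07125, the next number, with 23.6 ± 8.44 FPKM in wild-type and 6.18 ± 0.188 in deletion libraries (SD, n = 3 each; log2 change -1.71, limma adjusted p = 0.00126), while cel6A itself had close means. In the recovery strain PDE_07125 stood at 8.0 ± 0.928 FPKM, which was lower than in the wild type (log2 change -1.39, limma adjusted p = 0.0335) and did not pass against the deletion strain (log2 change -0.32, limma adjusted p = 0.364). Around cbh1, eg1 and bgl1, 0 tested neighbours were called lower in the deletion strain than in the wild type. Around cbh1, 2 of 8 were called higher, where 15.0% of all tested genes were. Compared with the recovery strain, 1 tested neighbour was called higher around each of cbh1, eg2 and bgl1, where 15.4% of all tested genes were. Against the recovery strain, 0 neighbours were called lower around cbh1 and cel6A, 2 of 8 around eg1 and 2 of 10 around bgl1. The latter include PDE_02735, next to bgl1, whose log2 change was -1.65 (limma adjusted p = 0.00198). Against the wild type, PDE_02735 did not pass in the deletion strain (log2 change -0.17, limma adjusted p = 0.68). It was higher in the recovery strain than in the wild type (log2 change 1.48, limma adjusted p = 0.0339).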

How the data were processed

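The authors deposited 1 table of FPKM values, per the file headers, with 9860 genes and a column for each of 9 libraries, rounded to 2 decimals. Columns were assigned by sample title. Per the labels' protocols, cDNA was cut with NlaIII and MmeI to give short tags, a method that needs no division by gene length. Neither aligner, counting tool, build nor annotation is given in the sources used here. Read depth is unknown, and counting intervals were left out.

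Genes with at least 1 FPKM in at least 3 libraries were kept. Values were analysed as log2(FPKM + 1) with limma 3.58.1 in R 4.3.3 (trend and robust options, 1 mean per strain, all 9 libraries, two-sided, Benjamini-Hochberg over 9099 genes, threshold 0.05). The filter was met by cbh1 in 7 libraries and by the other genes in 9. Changes carry the standard error of limma and means the SD. Permutation tests used scipy 1.17.1 under Python 3.11.15.

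The reference table describes another strain and matched 0 of the locus numbers, so other cellulose-degrading genes were neither named nor counted and no sequence is shown. The genes, lists, tests and alternatives were chosen with earlier results of these data known. Named beside the 5 genes are, for each, the gene most like it over the libraries, and 4 of the 10 genes with an adjacent locus number, chosen with their values known.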

Additional observations from a re-analysis of the deposited data

How the results depend on the processing

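Over all settings, 359 of 451 log2 changes of single genes stayed on their side of the threshold with the same sign, 34 were no longer past it, 32 came past it and 26 changed sign without passing. The number of the 5 genes called lower is given next, and no setting called any gene higher. Deletion against wild type had 3. It had 2 with a pseudocount of 5, no filter or the filter at 5 FPKM, 4 with array weights or without both wild-type replicate 2 and deletion replicate 2, and 0 with the threshold at 0.01 or with only the strains compared. Deletion against recovery had 1. It had 0 with a pseudocount of 5, no filter, rescaling to TPM, the threshold at 0.01 or the replicate block, 2 with array weights, and 3 with only the strains compared or without both those libraries. Recovery against wild type had 0, then 2 with array weights and 4 without both libraries. Deletion against the mean of both others had 1, then 2 with a pseudocount of 0.1, quantile normalization or rescaling without the most abundant gene, 3 with the replicate block, 4 with array weights or without both libraries, and 0 at 0.01. Without any 1 library in turn the counts ran from 0 to 4, 0 to 3, 0 to 2 and 0 to 4 in these comparisons. The share of all tested genes called lower ran over all settings from 6.64% to 25.7%, 9.06% to 32.7%, 0.187% to 12.5% and 9.54% to 30.5% in the same order. The array weights stopped before full convergence. A filter at 5 FPKM removed cbh1. With the stricter threshold the lower counts follow from its construction, and otherwise the cause was not tested.

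The changes of sign were mostly those of cel6A, whose log2 changes stayed near 0. In deletion against wild type it was -0.020 when rescaled without the most abundant gene, -0.10 with array weights and -0.20 without both libraries. In deletion against recovery it was 0.038 in TPM, 0.13 after quantile normalization, 0.034 after median centring, 0.073 with array weights and 0.11 without both libraries. In recovery against wild type it was -0.0082 after median centring, -0.18 with array weights and -0.31 without both libraries. Against the mean of both others it was 0.0067 with a pseudocount of 0.1, 0.064 in TPM, 0.14 after quantile normalization and 0.030 after median centring. Without 1 library in turn it ran from -0.34 to 0.24, -0.15 to 0.11, -0.31 to 0.27 and -0.19 to 0.14 in these comparisons, and eg2 from -0.47 to 0.034 in recovery against wild type.

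None of the 10 ratios passed the adjusted threshold under any of the settings tried. With so few libraries a ratio could pass only if many ratios had a low p together, so this does not show that the ratios were kept. With all 9 libraries and a pseudocount of 1, 6 of them had an unadjusted exact permutation p at or above 0.0714. With a pseudocount of 5 the log2 ratio differences turned to 0.0044 for cbh1 over eg1, 0.41 for cbh1 over bgl1 and 0.41 for eg1 over bgl1. With a deletion library left out the smallest exact p is 0.0714, so no pair could pass there. Without both replicate 2 libraries named above it is larger still, and again no pair could pass. Without 1 library, or without both replicate 2 libraries named above, the differences ran from -0.70 to 0.12 for cbh1 over bgl1, -0.48 to 0.26 for eg1 over bgl1 and -0.070 to 0.47 for eg2 over bgl1.

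Replicate numbers did not pair the libraries by the rule used, which asks for a correlation of deviations over 0.1 in every pair and found it in 3 of 9 (from -0.106 to 0.222). With the replicate block the counts were 3, 0, 0 and 3 of 5 genes in the order above. Of all genes tested, 10.8%, 15.2%, 0.648% and 15.7% were called lower there.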
